A study of Mus musculus with 6 samples.

Results

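The S phase and DNA replication genes examined here were 29 genes, chosen by symbol as genes of S phase and of the DNA replication machinery, and found among the 24041 genes of the count table. All 29 passed the filter on low counts, with at least 202 counts in any library, and so did 14451 genes in all. The 6 libraries came from mouse cerebral cortices into which plasmids had been brought by electric pulses (electroporation), and from which cells with green fluorescent protein (GFP) were sorted. The wild-type group (3 libraries) had received GFP with wild-type PRPF6, and the mutant group (3 libraries) GFP with a mutant PRPF6. PRPF6 is a splicing factor of the U4/U6.U5 tri-snRNP. Neither the age of the animals, their strain, the promoter of the plasmids, the species of the PRPF6 sequence nor its mutation is given in the sources used here. Both groups carried added PRPF6 and none lacked it, so a value raised by the mutant and one lowered by the wild-type protein cannot be told apart. Nothing in the labels says that libraries of a group came from separate animals, so p-values measure only the spread between these libraries. Values in sets of 3 are listed in the order of replicates 1, 2 and 3.

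A cell copies its genome once per division by loading rings of MCM2 to MCM7 onto origins in G1, with the help of CDC6 and CDT1. In S phase loaded rings are switched into running helicases. The E2F transcription factors, released when cyclin kinases inactivate the RB proteins, turn on most of the genes for this machinery shortly before S phase. In the developing cortex the cells that pass through S phase are the progenitors, while newborn neurons have left the cycle. In sorted bulk cells, fewer cells in cycle and less RNA per cycling cell cannot be told apart.

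The promoters of these genes are shown first because many of these genes are textbook E2F targets. Whether E2F had a part in their levels in these libraries was not tested. A promoter here is the 250 bases before and the 50 bases after an annotated transcription start (RefSeq, GRCm38.p6). The RefSeq table held 27 promoters for 24 of the 29 genes. Exact matches to the E2F words TTTCCCGC, TTTGGCGC, TTTCGCGC and TTTGCCGC were searched on both strands, and matches that overlap were counted separately. At least 1 match stood in 11 of the 27 promoters (40.7%), against 2.26% of all 32851 promoters in the table. More than 1 match stood in 4 of them (14.8%, against 0.0974%), those of Mcm3, Mcm5, Mcm6 and Mcm7. The stretches below run 5′ to 3′ along each gene, with the matches in capitals. For the following 3 genes the whole window before the start is given, as it shows how far from the start the words lie.
Mcm5 (chr8:75109259-75109508, plus strand): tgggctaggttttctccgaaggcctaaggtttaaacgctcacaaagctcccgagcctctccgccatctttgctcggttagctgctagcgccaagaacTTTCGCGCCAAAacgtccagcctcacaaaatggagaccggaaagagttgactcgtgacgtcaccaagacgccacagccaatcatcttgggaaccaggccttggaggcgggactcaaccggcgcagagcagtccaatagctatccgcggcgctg
Mcm6 (chr1:128359706-128359955, minus strand): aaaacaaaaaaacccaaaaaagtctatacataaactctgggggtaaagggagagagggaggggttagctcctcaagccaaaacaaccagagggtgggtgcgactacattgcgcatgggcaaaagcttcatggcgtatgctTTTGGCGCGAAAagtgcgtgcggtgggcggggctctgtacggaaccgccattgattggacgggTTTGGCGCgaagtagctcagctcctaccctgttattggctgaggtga
Pola1 (chrX:93632156-93632405, minus strand): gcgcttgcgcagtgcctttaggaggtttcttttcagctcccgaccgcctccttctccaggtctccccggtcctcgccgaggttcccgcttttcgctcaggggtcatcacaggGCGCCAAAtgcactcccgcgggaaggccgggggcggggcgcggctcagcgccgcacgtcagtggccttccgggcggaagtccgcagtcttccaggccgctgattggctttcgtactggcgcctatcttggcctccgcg
For the following 5 genes 30 bases around the words are given, past the start in Mcm3, Cdt1 and Clspn and, in Mcm7 and Hells, before it but inside an exon of GENCODE M21.
Mcm7 (chr5:138172030-138172059, minus strand): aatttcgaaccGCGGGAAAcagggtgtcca
Hells (chr19:38930917-38930946, plus strand): gaccaccgggtTTTCCCGCgaaagagaagc
Mcm3 (chr1:20820265-20820294, minus strand): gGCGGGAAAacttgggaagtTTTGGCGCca
Cdt1 (chr8:122568035-122568064, plus strand): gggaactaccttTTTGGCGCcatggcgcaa
Clspn (chr4:126556990-126557019, plus strand): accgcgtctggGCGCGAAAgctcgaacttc

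In Mcm5 and in the distal site of Mcm6 the capitals join 2 matches on opposite strands that share bases. The stretch of Mcm7 shows 1 of its 2 matches, as the other lies past the start. The remaining promoters with a match were those of Cdc6, Dtl and Uhrf1. Pcna, Rrm1, Rrm2, Tyms, Mcm2, E2f1 and Ccne1 held none of these exact words, which says only that the letters are not in this window. The E2f1 window (chr2:154569377-154569676) lies wholly inside the gene, which GENCODE starts at 154569892 on the minus strand. Bases before that start were not searched for E2f1. The windows with a match in Cdc6 and Uhrf1 also lie inside the GENCODE gene. Among replication genes outside the set, 23.2% of 69 promoters held a match, and among G2 and mitosis markers 3.33% of 30 did. The G2 and mitosis promoters held the CHR word TTTGAA in 21 of 30 cases, against 11.1% for the S phase genes and 17.9% for all promoters. CCAAT boxes stood in 63.0% of the S phase promoters, 80.0% of the G2 and mitosis promoters and 37.4% of all promoters. A match is a description of the sequence and was not measured as a bound site.

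**Figure D1:**
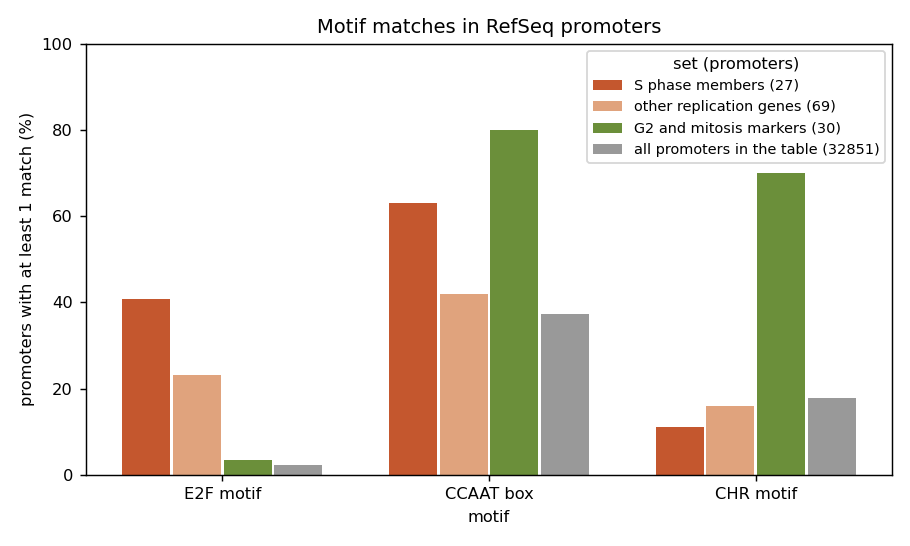
Share of RefSeq promoters (vertical axis, percent) with at least 1 exact match to an E2F, CCAAT or CHR word, for 4 sets of promoters (bars, number of promoters in the key). The S phase genes stand at 40.7% for the E2F words against 2.26% of all promoters, and 21 of the 30 G2 and mitosis promoters hold the CHR word.

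Expression is given in CPM, the usual unit of counts divided by a library's total, scaled with TMM factors. The totals ranged from 45115122 to 60600617 expected counts, so that 1 count was worth 0.0164 to 0.0228 CPM. The S phase genes together took 0.324% to 0.577% of a library's counts. Prpf6 itself averaged 141 ± 22.6 CPM in the wild-type group and 134 ± 10.01 CPM in the mutant group (SD, n = 3 each), and whether plasmid transcripts are among these counts was not tested. All 12 cortical identity markers were detected in each library, but mutant replicate 1 stood apart: Neurod6, a marker of excitatory cortical neurons, had 57.5 CPM in it and 583 to 1276 CPM in the others. Wild-type replicate 3 stood apart in red blood cell and meningeal genes, with Hba-a1, an alpha-globin, at 5737 CPM (24.5 to 656 elsewhere) and Col1a1, a collagen, at 592 CPM (4.68 to 27.6 elsewhere). Results are therefore given with and without these libraries where they rest on them.

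The replication genes did not separate the groups. After Benjamini-Hochberg adjustment over all 14451 genes, no gene of the set passed the quasi-likelihood test of edgeR (0 of 29 called, 0% of all genes called, adjusted p = 1.00 throughout). Fitted means were higher with mutant PRPF6 in 16 genes and lower in 13, with a median log2 difference of 0.037, beside 49.8% higher and a median of −0.0013 over all tested genes. At an unadjusted p under 0.05 stood 1 of the 29, Cdt1, beside 3.38% of all genes in either direction (2.18% higher, 1.2% lower). The groups did not overlap in 1 of the 29, again Cdt1, beside 9.14% of all genes (4.6% with mutant above, 4.54% with mutant below). DESeq2 and limma-voom also called 0 of the 29, each with 1 at an unadjusted p under 0.05, though DESeq2 gave no adjusted p for 14 of them.

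What differed was the libraries within each group. For each gene the log2 CPM minus its mean over the 6 libraries was averaged over the 29 genes, which gives an S phase level per library. That level was −0.019, 0.31 and −0.28 for the wild-type group, and −0.45, −0.028 and 0.46 for the mutant group. The group means were 0.0041 ± 0.30 and −0.0041 ± 0.46 (SD, n = 3 each), so the mutant group held both the lowest and the highest library. Every one of the 29 genes was higher in mutant replicate 3 than in mutant replicates 1 and 2, an order that 31.3% of all tested genes shared. In 25 of 29 genes mutant replicate 1 was the lowest of its group (36.9% of all genes). Wild-type replicate 2 was the highest of its group in 24 of 29 (31.2% of all genes), and wild-type replicate 3 the lowest in 22 of 29 (31.6%).

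Over all 6 libraries mutant replicate 3 was the highest in 19 genes (17.8% of all tested genes) and wild-type replicate 2 in 7 (11.7%). Mutant replicate 1 was the lowest in 18 genes (24.1% of all tested genes), wild-type replicate 1 in 6 (21.4%) and wild-type replicate 3 in 5 (12.5%). Over all tested genes mutant replicate 1 was also the highest library in 23.3%, more than any other library. The ratio of mutant replicate 3 to mutant replicate 1 had a median of 1.80 over the 29 genes, with a range from 1.14 (Gins2) to 5.04 (Clspn). Among the 10508 tested genes of the same CPM range, 6.83 to 532, that median ratio was 1.02. These 2 libraries were taken for their S phase level, and scaling holds most genes level between libraries, so the 2 medians are not a like comparison. The ratio of highest to lowest library, whichever these were for a gene, had a median of 1.97 over the 29 genes. Over the genes of that range it was 1.84. Within the groups the median SD of a gene's log2 CPM was 0.39, beside a median absolute difference between the groups of 0.14. For the genes of the same CPM range these values were 0.32 and 0.20. The group difference exceeded the pooled within-group SD in 2 of the 29 genes, Cdt1 and Ccne1, beside 28.7% of the genes of that range.

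**Figure D2:**
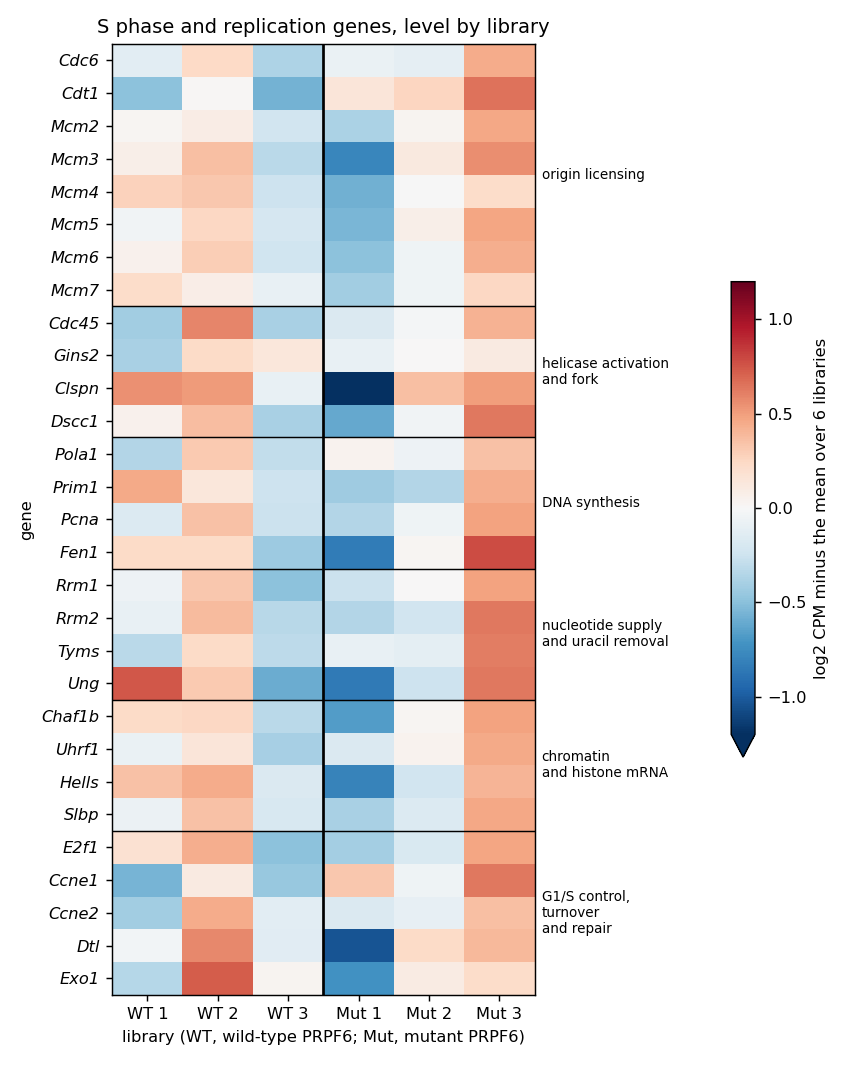
Log2 CPM of each of the 29 genes (rows, grouped by role) in each library (columns) minus that gene's mean over the 6 libraries, with red above and blue below the mean. Mutant replicate 3 is above the mean in every row, and mutant replicate 1 is below it in every row except Cdt1, Pola1 and Ccne1.

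Origin licensing genes were higher with mutant PRPF6 in 5 cases and lower in 3 (median log2 difference 0.021), and mutant replicate 1 was the lowest of all 6 libraries for each ring gene. MCM2 to MCM7 form the ring that is the motor of the replicative helicase. Mcm2 was at 376, 394 and 316 CPM in the wild-type group and at 285, 378 and 512 CPM in the mutant group. Mcm3 was at 227, 278 and 173 CPM with wild-type and at 126, 235 and 319 CPM with mutant PRPF6. In both genes mutant replicates 1 and 3 enclosed all wild-type values, and the groups overlapped. Mcm4 was at 214, 221 and 148 CPM with wild-type and at 119, 176 and 206 CPM with mutant PRPF6, so that its highest library was wild-type replicate 2. Mcm5 was at 223, 273 and 199.7 CPM with wild-type and at 156, 241 and 317 CPM with mutant PRPF6. Neither gene separated the groups.

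Mcm6 (chromosome 1, 128331590 to 128359664, minus strand, GRCm38), whose promoter carries 3 E2F words, was at 365, 434 and 299.6 CPM with wild-type and at 251, 341 and 477 CPM with mutant PRPF6. Its group means were 366 ± 67.1 and 357 ± 114 CPM (SD, n = 3 each), and the fitted log2 difference was −0.039 ± 0.25 (SE). Mcm7 was at 493, 448 and 396 CPM with wild-type and at 317, 408 and 504 CPM with mutant PRPF6, and its first exon overlaps Ap4m1 on the opposite strand, whose reads may be shared with it. The 6 log2 differences of the ring genes ran from −0.22 (Mcm4) to 0.11 (Mcm2), each smaller than its SE. Without mutant replicate 3 all 6 were negative, and without mutant replicate 1 they ran from −0.024 (Mcm4) to 0.30 (Mcm2).

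Because the ring holds 1 copy of each subunit, the make-up of the MCM mRNA pool was also compared, as the share of each subunit in the summed CPM per kilobase of exon. Mcm7 took the largest share, 22.2 to 26.6% in wild-type and 22.2 to 26.3% in mutant libraries, followed by Mcm6 with 19.4 ± 0.94% and 19.5 ± 0.71% (SD, n = 3 each). Mcm2 was the 1 subunit whose shares did not overlap between groups: 12.9, 12.5 and 13.5% in the wild-type group and 15.05, 13.9 and 14.4% in the mutant group. That difference was seen after the values were known and was not tested. Shares per kilobase depend on the annotated exons, which may differ from the transcripts used in these cells.

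Cdt1, the loading factor that places the ring on DNA and is destroyed in S phase, differed most between groups. It lies on chromosome 8, 122568015 to 122573554, plus strand. It was at 34.8, 49.5 and 33.0 CPM in the wild-type group and at 54.0, 58.4 and 76.7 CPM in the mutant group. The highest wild-type library was below the lowest mutant library, and mutant replicate 1, the lowest library for most of the set, was above every wild-type one. Group means were 39.1 ± 9.08 and 63.0 ± 12.1 CPM (SD, n = 3 each). On the log2 scale the mutant group was higher by 0.69 ± 0.24 (SE), with an unadjusted p = 0.0214 and an adjusted p = 1.00 from edgeR. Leaving out each library in turn gave 0.52 to 0.89. Cdc6, the ATPase that loads the ring together with CDT1, lay between 38.9 and 68.3 CPM with overlapping groups.

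Of the 4 genes that turn the loaded ring into a running fork, 2 were higher and 2 lower with mutant PRPF6 (median log2 difference 0.014). Cdc45, which joins the ring and the GINS complex in the active helicase, was at 41.8, 83.9 and 42.8 CPM with wild-type and at 49.4, 54.9 and 74.8 CPM with mutant PRPF6. Its highest library was wild-type replicate 2. Gins2, a GINS subunit, varied least of the 29, between 25.6 and 39.4 CPM. Dscc1, part of the clamp loader for sister chromatid cohesion, lay between 10.9 and 25.8 CPM.

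Clspn encodes claspin, which links the fork to the ATR and CHK1 checkpoint (chromosome 4, 126556935 to 126593903, plus strand). It was at 29.4, 28.5 and 18.8 CPM in the wild-type group and at 5.63, 25.8 and 28.4 CPM in the mutant group. Mutant replicate 1, with 327 counts, was below every other library, while the other 2 mutant libraries lay inside the wild-type range. The ratio of highest to lowest library, 5.23, was the largest of the 29 genes. The log2 difference was −0.36 ± 0.55 (SE) and turned to 0.080 without mutant replicate 1. Atr, which encodes the kinase upstream of claspin, was also lowest in that library, at 10.7 CPM against 26.3 to 36.5 CPM elsewhere.

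**Figure D3:**
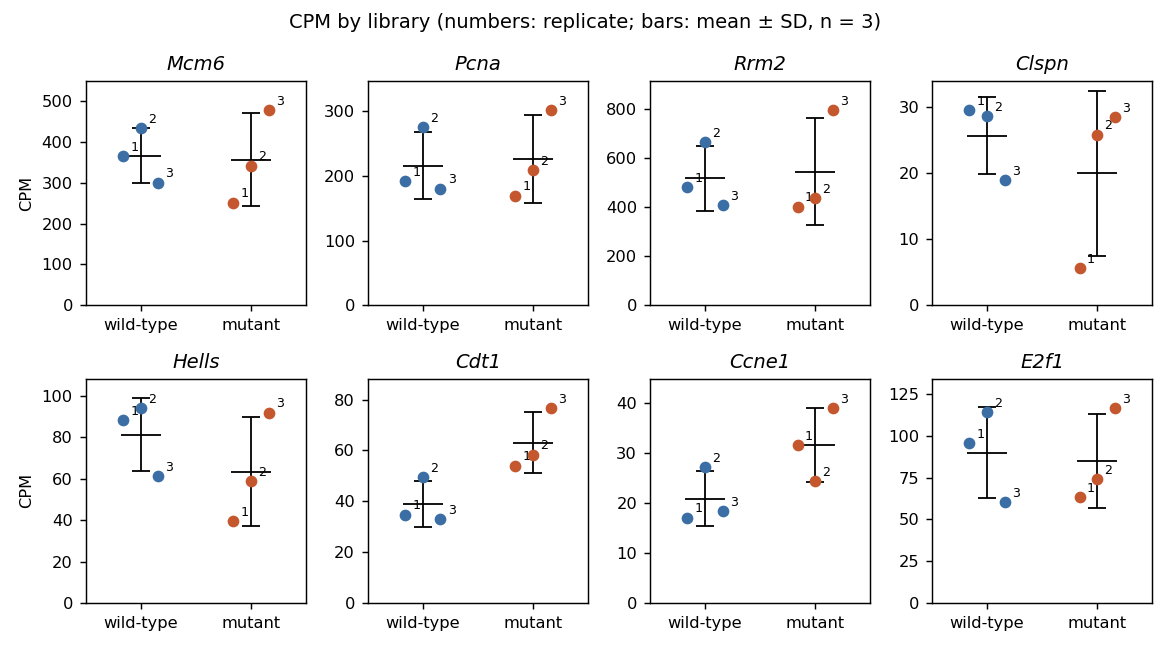
CPM (vertical axes, from 0) of 8 of the genes in wild-type and mutant PRPF6 libraries. Numbered points are replicates and bars are the mean ± SD (n = 3). In Mcm6, Pcna and Rrm2 mutant replicates 1 and 3 enclose the wild-type points, in Clspn mutant replicate 1 stands alone at 5.63 CPM, and in Cdt1 all mutant points lie above all wild-type points.

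Of the 4 genes of DNA synthesis, 3 were higher and 1 lower with mutant PRPF6 (median log2 difference 0.082). Pcna encodes the sliding clamp that holds polymerases on DNA and is also a target of p53. It was at 192, 276 and 180.3 CPM with wild-type and at 169, 209 and 302 CPM with mutant PRPF6, with group means of 216 ± 52.0 and 227 ± 67.9 CPM (SD, n = 3 each). Its log2 difference of 0.069 ± 0.25 (SE) turned negative when wild-type replicate 1, wild-type replicate 3 or mutant replicate 3 was left out. Pola1, the catalytic subunit of the primase-associated polymerase, was at 31.3, 49.9 and 32.7 CPM with wild-type and at 41.1, 38.4 and 51.0 CPM with mutant PRPF6. Here mutant replicate 1 was not low, although it was lowest for Prim1, the primase subunit (63.1 to 116 CPM), and Fen1, the nuclease that trims Okazaki fragments (97.4 to 300.2 CPM).

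Nucleotide supply was led by Rrm2, the regulated subunit of ribonucleotide reductase and the gene of the set with the most mRNA per length, 192 CPM per kilobase averaged over the 6 libraries. It was at 481, 666 and 408 CPM with wild-type and at 402, 437 and 796 CPM with mutant PRPF6. Tyms, thymidylate synthase, was at 101, 148 and 102 CPM with wild-type and at 119, 117 and 193 CPM with mutant PRPF6, from counts partly shared with other genes. Its log2 difference was 0.29 ± 0.25 (SE). In both genes mutant replicate 3 was highest and the groups overlapped. Rrm1, the large reductase subunit, lay between 245 and 482 CPM. Ung, which removes uracil from DNA, was the least abundant of the 29 per kilobase, at 3.48 to 10.5 CPM.

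Among chromatin genes Slbp, which binds the stem-loop of histone mRNAs, was at 202, 269.8 and 185 CPM with wild-type and at 162, 189 and 292 CPM with mutant PRPF6. Hells, a chromatin remodeller needed for DNA methylation, was at 88.4, 94.2 and 61.3 CPM with wild-type and at 39.6, 58.8 and 91.9 CPM with mutant PRPF6. Its log2 difference was −0.36 ± 0.32 (SE), with a range from −0.73 to −0.11 when each library was left out. Uhrf1, which recruits DNMT1 to newly made DNA, lay between 117 and 212 CPM, and Chaf1b, a subunit of the histone chaperone CAF-1, between 43.6 and 97.1 CPM. All 4 genes had overlapping groups.

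Of the genes of G1/S control, E2f1, an activator of the E2F family, was at 95.6, 114 and 60.2 CPM with wild-type and at 63.4, 74.2 and 117 CPM with mutant PRPF6. Whether it acts on the other genes here was not tested. Ccne1, cyclin E1, which drives CDK2 at S phase entry (chromosome 7, 38097984 to 38107534, minus strand), was at 17.1, 27.3 and 18.4 CPM with wild-type and at 31.6, 24.4 and 39.1 CPM with mutant PRPF6. Mutant replicates 1 and 3 were above all wild-type libraries and mutant replicate 2 was below wild-type replicate 2. Its log2 difference was 0.60 ± 0.30 (SE; edgeR, unadjusted p = 0.0837, adjusted p = 1.00) and 0.42 to 0.83 when each library was left out. Ccne2, cyclin E2, lay between 27.2 and 49.6 CPM with a log2 difference of 0.039 ± 0.29 (SE). Dtl, the ubiquitin ligase adaptor that marks CDT1 for destruction in S phase, lay between 36.7 and 112 CPM, and Exo1, a repair exonuclease, between 24.9 and 68.2 CPM. Both were lowest in mutant replicate 1 and highest in wild-type replicate 2.

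The sign of most group differences rested on single libraries. In 21 of the 29 genes it turned when 1 of the 6 libraries was left out. It was kept in 8 genes, higher with mutant PRPF6 in Cdt1, Ccne1, Tyms, Uhrf1 and Pola1 and lower in Hells, Mcm4 and Prim1. Without mutant replicate 3, 5 genes were higher and 24 lower (median −0.31). Without mutant replicate 1, 25 were higher and 4 lower (median 0.21), and without wild-type replicate 3, 8 were higher and 21 lower (median −0.091). Without wild-type replicate 2, 23 were higher and 6 lower (median 0.18). With wild-type replicate 3 and mutant replicate 1 both left out, the split was 21 higher and 8 lower (median 0.10).

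**Figure D4:**
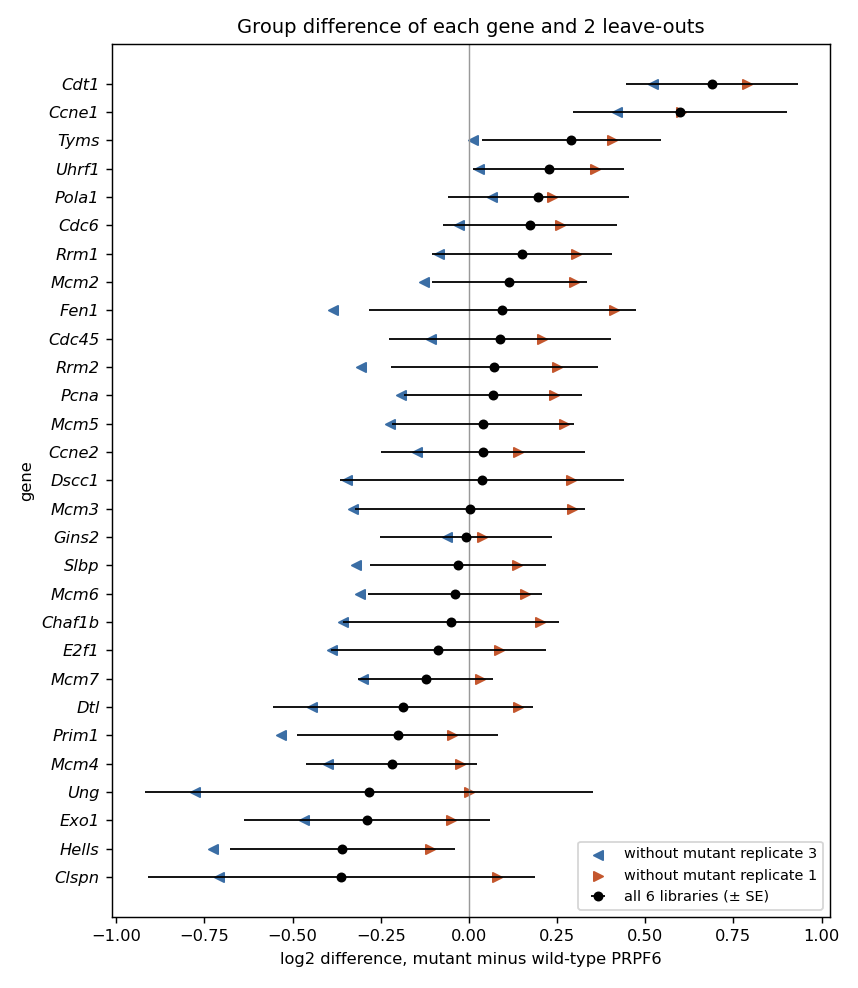
Log2 difference between mutant and wild-type PRPF6 (horizontal axis) for each of the 29 genes with all 6 libraries (black points, bars ± SE), without mutant replicate 3 (blue triangles) and without mutant replicate 1 (orange triangles). The blue triangles lie left of the orange ones in every gene, and 24 blue triangles are below 0.

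Since the genes share a level in each library, each was also described relative to the mean of the other 28 in the same library. On that scale the groups did not overlap in 6 of the 29 genes, with mutant above wild-type in Cdt1, Ccne1, Uhrf1 and Rrm1 and below it in Hells and Mcm6. The nearest libraries of the groups lay close together in Mcm6 (wild-type −0.018, mutant −0.023), Rrm1 (0.0094 and 0.023) and Uhrf1 (−0.064 and −0.0056). Beside this, 3.88% of all tested genes did not overlap after the level of all 29 genes was subtracted, and 9.14% before. These shares also hold genes unrelated to replication. Subtracting that level removes spread that the 29 genes share but can add spread to other genes. The 6 of 29 therefore cannot be read against 3.88%. Cdt1 was at −0.49, −0.31 and −0.30 in the wild-type group and at 0.61, 0.29 and 0.19 in the mutant group (log2 units around the other genes). Ccne1 was at −0.56, −0.21 and −0.18 with wild-type and at 0.80, −0.024 and 0.17 with mutant PRPF6. Hells was at 0.39, 0.14 and 0.11 with wild-type and at −0.37, −0.21 and −0.056 with mutant PRPF6. This description was chosen after the values were seen and has no test.

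The rest of the replication machinery also had its lowest level in mutant replicate 1 and its highest in mutant replicate 3. For 70 further replication and nucleotide synthesis genes, all tested, the level was −0.050, 0.25 and −0.24 in the wild-type group and −0.36, 0.037 and 0.36 in the mutant group. Of these 70, 0 passed the edgeR test, 4 stood at an unadjusted p under 0.05 (all higher with mutant PRPF6), and 43 were higher and 27 lower (median 0.074). Tonsl, a factor that reads newly deposited histones at forks, was at 24.1, 30.6 and 26.6 CPM with wild-type and at 54.2, 45.5 and 36.9 CPM with mutant PRPF6 (log2 difference 0.75 ± 0.24, SE). Dnmt1, the maintenance DNA methyltransferase, was at 166, 203 and 192 CPM with wild-type and at 232, 274 and 249.6 CPM with mutant PRPF6 (0.43 ± 0.15, SE). Cad, the enzyme that starts pyrimidine synthesis, was at 71.0, 76.5 and 51.1 CPM with wild-type and at 104, 127 and 79.6 CPM with mutant PRPF6 (0.65 ± 0.24, SE). In these 3 genes no mutant library reached down to a wild-type one, and mutant replicate 3 was not their highest library. Over the list the groups did not overlap in 4 of 70 genes, beside 9.14% of all tested genes, and the 4 at an unadjusted p under 0.05 stand beside 3.38%.

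Of 32 other G1/S regulators 0 passed, with 20 higher and 12 lower. At an unadjusted p under 0.05 stood 1 of the 32, beside 3.38% of all tested genes. That gene was Cdkn1a, the p53-induced CDK inhibitor p21, at 14.2, 19.6 and 32.2 CPM with wild-type and at 58.4, 28.3 and 43.3 CPM with mutant PRPF6 (0.98 ± 0.38, SE). Its highest library was mutant replicate 1, where the S phase level was lowest, but mutant replicate 3, with the highest S phase level, was next. Ccnd2, cyclin D2 of cortical progenitors, was at 1224, 1699 and 2527 CPM with wild-type and at 824, 1051 and 1567 CPM with mutant PRPF6 (−0.66 ± 0.31, SE). Rb1, the retinoblastoma protein that holds E2F in check, was at 86.4, 106 and 87.8 CPM with wild-type and at 59.9, 84.7 and 73.5 CPM with mutant PRPF6 (−0.36 ± 0.19, SE). The Rb1 groups did not overlap, while those of Cdkn1a and Ccnd2 did. Over the list the groups did not overlap in 2 of 32 genes, beside 9.14% of all tested genes.

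Of 28 fork checkpoint and recombination genes 0 passed, with 11 higher and 17 lower. At an unadjusted p under 0.05 stood 1 of the 28, lower with mutant PRPF6, beside 3.38% of all tested genes (1.2% lower). Atr had a log2 difference of −0.53 ± 0.39 (SE). Fancb, of the Fanconi anaemia core complex, was at 8.21, 7.58 and 11.2 CPM with wild-type and at 13.9, 10.9 and 13.9 CPM with mutant PRPF6 (0.52 ± 0.38, SE). The groups overlapped in both genes, as in all 28 of the list, while they did not overlap in 9.14% of all tested genes.

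Markers of the next cell cycle phase were set beside the S phase level. For 32 G2 and mitosis markers, none of them in the S phase set, the level was −0.29, 0.29 and −0.28 in the wild-type group and −0.52, 0.014 and 0.78 in the mutant group. Fitted means were higher with mutant PRPF6 in 30 of the 32 and lower in 2 (median log2 difference 0.25), with 0 past the test and 0 at an unadjusted p under 0.05. Over all tested genes 49.8% were higher and 3.38% stood at such a p. The groups overlapped in all 32 markers, while they did not overlap in 9.14% of all tested genes. All 32 markers were higher in mutant replicate 3 than in the other mutant libraries (31.3% of all tested genes). Mki67, which marks dividing cells, was at 284, 432 and 201 CPM with wild-type and at 169, 263 and 419 CPM with mutant PRPF6. Its mean was lower with mutant PRPF6, against the direction of most of the list. Its highest library was wild-type replicate 2, while in 30 of the 32 markers mutant replicate 3 was above all wild-type libraries (26.4% of all tested genes). Top2a, a topoisomerase of dividing cells, was at 320.5, 486 and 296 CPM with wild-type and at 262, 385 and 520.1 CPM with mutant PRPF6. This level, which averaged −0.092 ± 0.33 in the wild-type and 0.092 ± 0.66 in the mutant group (SD, n = 3 each), was also entered as a covariate in the edgeR fit. In that fit 7 S phase genes were higher and 22 lower with mutant PRPF6 (median −0.19). None passed the test after adjustment. At an unadjusted p under 0.05 stood 2 of the 29, beside 4.26% of all genes in the same fit. These were Cdt1, with a log2 difference of 0.60 ± 0.19 (SE), and Hells, with −0.59 ± 0.21 (SE). The fit was added after the data were seen. Its covariate was lowest and highest in the same libraries as the S phase level, so it takes up spread that these genes share. The SE of Hells was 0.32 without it. The fit is therefore a description and not separate evidence for either gene.

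**Figure D5:**
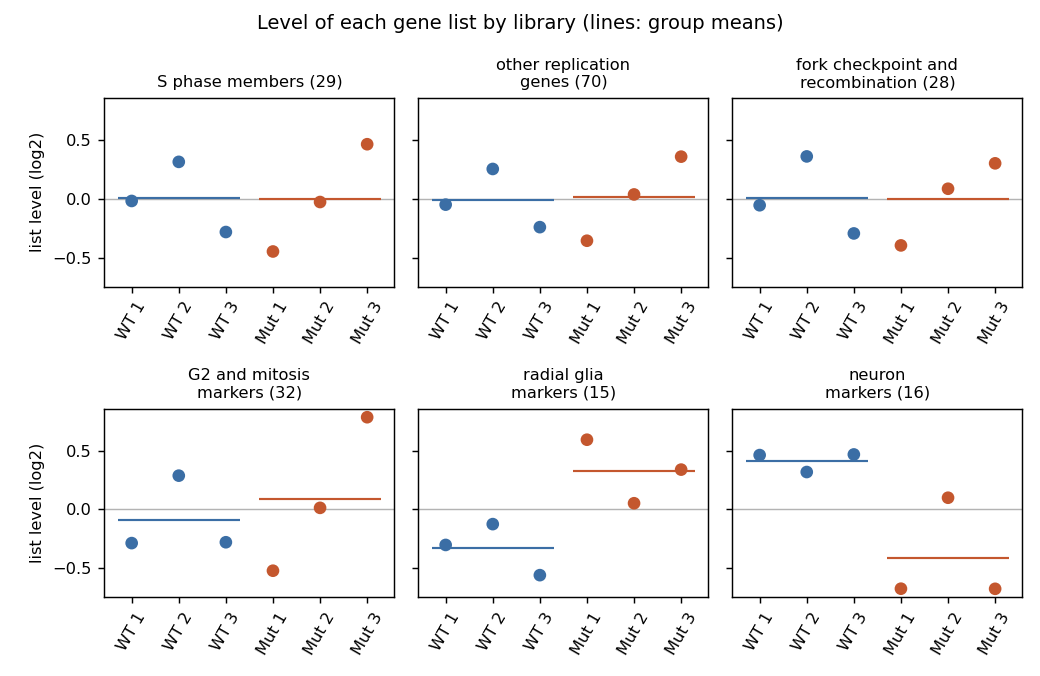
Level of 6 gene lists in each library (vertical axes, mean log2 CPM of the list's genes around their 6-library mean, number of genes in brackets), with wild-type libraries in blue, mutant ones in orange and group means as lines. In the 4 lists of replication, checkpoint and mitosis genes mutant replicate 1 is lowest and mutant replicate 3 or wild-type replicate 2 highest, while for radial glia and neuron markers the groups do not overlap.

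Markers of cell types moved only in part with the S phase level. Radial glia markers, the cortical stem cells, had levels of −0.30, −0.12 and −0.56 in the wild-type group and 0.59, 0.053 and 0.34 in the mutant group. All 15 had higher fitted means with mutant PRPF6 (median log2 difference 0.64), 0 passed the test, 7 stood at an unadjusted p under 0.05 and the groups did not overlap in 4. The level was highest in mutant replicate 1, where replication genes were lowest. Sox2, a stem cell factor among them, was at 142, 162 and 119 CPM with wild-type and at 206, 177 and 234 CPM with mutant PRPF6. Intermediate progenitor markers were lowest in wild-type replicate 3 (−0.51) and mutant replicate 1 (−0.25), the 2 libraries with the lowest S phase level. Eomes, the factor that defines these progenitors, was at 175, 139.6 and 97.4 CPM with wild-type and at 20.6, 159 and 202 CPM with mutant PRPF6. Neuron markers had levels of 0.46, 0.32 and 0.47 in the wild-type group and −0.67, 0.10 and −0.67 in the mutant group, which do not overlap. All 16 had lower fitted means with mutant PRPF6 (median log2 difference −0.71), 0 passed the test, 5 stood at an unadjusted p under 0.05 and the groups did not overlap in 2. Over all tested genes 3.38% stood at such a p and 9.14% did not overlap. Their summed level was 3618 to 4774 CPM with wild-type and 2049.5 to 3644 CPM with mutant PRPF6, and Tubb3, neuronal tubulin, lay between 544 and 949.8 CPM.

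Interneuron markers, which stand for cells from the ventral forebrain, summed to 189.9 to 1106 CPM with wild-type and 342 to 885 CPM with mutant PRPF6. They were highest in wild-type replicate 3 and mutant replicate 1, the libraries of lowest S phase level. Red blood cell markers summed to 1056 to 17238 CPM with wild-type and 137 to 1661 CPM with mutant PRPF6, meningeal markers to 148 to 1956 and 47.8 to 209.7 CPM. Microglia markers summed to 152 to 407 CPM with wild-type and 54.9 to 1121 CPM with mutant PRPF6, with their highest value in mutant replicate 2, whose S phase level was near the mean. Endothelial markers summed to 2.13 to 162 CPM with wild-type and 1.12 to 63.4 CPM with mutant PRPF6, and 5 of the 10 were too low to be tested. The part of these cells in the S phase levels was not tested.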

How the data were processed

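Messenger RNA was measured in 6 libraries of GFP-sorted mouse cortical cells. Per the series' design text, the cDNA came from picograms of RNA amplified with a SMART-Seq kit, which adds no molecular identifiers, so reads are not independent molecules, and the libraries shared a sequencing lane. The authors deposited expected counts per gene, made with RSEM on mm10 per the submitters' processing notes. The sources used here give no RSEM version, aligner, annotation or strand setting, so overlapping and antisense genes may share reads. In a library 8.15% to 9.15% of values were not whole, because RSEM divides shared reads. This touched Gins2, Tyms, E2f1 and Ccne2 among the 29 genes.

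Groups and replicate numbers came from the sample titles. Expected counts were rounded, filtered with filterByExpr (14451 of 24041 genes kept), scaled with TMM and compared between groups, with no other term, by the two-sided quasi-likelihood test of edgeR 4.0.16 with robust estimation in R 4.3.3, at a threshold of 0.05 after Benjamini-Hochberg adjustment. Levels use log2 CPM with a prior count of 2. Lists had 1 gene found under an older symbol. As alternatives, scaling used upper-quartile or DESeq2 factors, the filter was dropped or set to 1 CPM in 3 libraries, and the test was replaced by limma-voom (limma 3.58.1) or DESeq2 1.42.0. Further ones were estimation that was not robust, a threshold of 0.1, a replicate block, and leaving out each library. A fit without 2 libraries and one with a G2 and mitosis covariate were added after seeing the data, as was the CHR motif. The steps were also run on simulated data with known changes, and the outcome is not reported here.

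The 29 genes and all lists were chosen with earlier results of these data known. Values by library are given for Mcm2 to Mcm7, Pcna, and in each of 6 roles the most abundant gene and that of smallest unadjusted p. Each pathway list gave its 3 genes of smallest unadjusted p, except that 1 gene this rule names is not reported here. Neurod6 was named after its values were seen. Gene coordinates and exon lengths are those of GENCODE M21 (GRCm38), matched by symbol, and promoters those of RefSeq on GRCm38.p6, where the bases past the start were found in a transcript of the gene for 24 of 27 promoters.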

Additional observations from a re-analysis of the deposited data

How the results depend on the processing

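The count of S phase genes past the test stayed at 0 in every alternative, and of all genes only DESeq2 called any, 10, none of them an S phase gene. DESeq2 gave no adjusted p for 11213 of the 14451 genes, with 14 of the 29 S phase genes among them, so those could not be called. The median log2 difference of the 29 genes, 0.037, turned to −0.046 with limma-voom, to −0.029 with the replicate block and to −0.19 with the G2 and mitosis covariate, where 7 genes were higher. Leaving out 1 library gave medians from −0.31 to 0.21 and 5 to 25 genes higher. For the 70 further replication genes the median was −0.038 with the covariate and −0.16 to 0.18 with 1 library left out. The correlation across genes of deviations from the group means was 0.054, 0.061 and −0.26 for same-numbered libraries. For libraries of unlike number it ran from −0.255 to 0.257. With so few libraries a group, these values cannot decide whether same-numbered libraries were paired. With the block 0 genes passed.

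Among named genes, Mcm3 was −0.020 with upper-quartile factors, −0.096 with limma-voom, −0.076 with the block and −0.25 with the covariate. Mcm5 was −0.026 with limma-voom, −0.0093 with the block and −0.14 with the covariate. The covariate also turned Mcm2 (−0.033), Pcna (−0.080), Cdc45 (−0.0091) and Rrm2 (−0.12). With wild-type replicate 3 and mutant replicate 1 both left out, Mcm6 was 0.038 and Slbp 0.032. With 1 library left out, ranges that crossed 0 were −0.13 to 0.30 (Mcm2), −0.33 to 0.29 (Mcm3), −0.22 to 0.27 (Mcm5), −0.31 to 0.16 (Mcm6), −0.30 to 0.031 (Mcm7), −0.19 to 0.28 (Pcna), −0.11 to 0.49 (Cdc45), −0.71 to 0.080 (Clspn), −0.31 to 0.29 (Rrm2), −0.32 to 0.15 (Slbp), −0.39 to 0.12 (E2f1) and −0.16 to 0.067 (Prpf6). The cause of these turns was not tested beyond the libraries left out. The median SE of a log2 difference over all genes was 0.341, which limits what 3 libraries a group can show.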
